A study of Homo sapiens with 4 samples.

Results

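SR proteins, heterogeneous nuclear ribonucleoproteins (hnRNPs) and the kinases that phosphorylate SR proteins were followed in A549 cells deprived of glutamine. The members are the protein-coding genes whose symbols begin with SRSF or HNRNP, with TRA2A, TRA2B, CLK1, CLK2, CLK3, CLK4, SRPK1 and SRPK2. They are 47 of the 58560 genes in the summed table, of which 19894 are protein-coding: 12 SRSF genes, 2 TRA2 genes, 4 CLK kinases, 2 SRPK kinases and 27 HNRNP genes. Of the 47, 42 passed the filter on low counts. HNRNPCL1, HNRNPCL2 and HNRNPCL3 had no count in any library, HNRNPCL4 had a count in control replicate 1 only and HNRNPUL2-BSCL2 in deprived replicate 1 only, so these 5 were not tested.

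A549 is an established human lung adenocarcinoma line, labelled here as alveolar basal epithelial cells. The 2 deprived libraries came from cells washed in PBS and moved to DMEM without glutamine but with fetal bovine serum; the sample labels give 24 h for replicate 1 and 25 h for replicate 2, whereas the protocol gives 24 h for both. The 2 control libraries came from cells with no treatment, in DMEM with serum and antibiotics, and no change of medium is described for them. The labels do not say that replicates were separate cultures, so the p-values measure only the spread between these samples, which may be technical. Totals were 120425759 to 123414592 estimated counts in the deprived libraries and 101496318 to 101982373 in the control libraries. Of 7 epithelial markers, 4 (KRT7, KRT8, KRT18 and CDH1) had at least 1 CPM (counts scaled for library size with TMM factors) in every library. The 7 summed to 3536 and 4142 CPM in the deprived libraries and to 8093 and 8262 CPM in the control libraries, with members called in both directions: KRT7 (1.55 on the log2 scale, deprived over control) and NKX2-1 (4.26, below 1 CPM in every library) were higher, and KRT8 (-2.70), CDH1 (-2.85), KRT18 (-1.13), EPCAM and NAPSA were lower, the last 2 below 3 CPM throughout. The 5 alveolar type II markers summed to 30.4 to 31.8 CPM in the deprived and 41.9 to 42.1 CPM in the control libraries, mostly from ABCA3 (27.7 and 28.6 CPM in deprived, 41.2 and 41.3 CPM in control libraries); LAMP3 was higher (3.47), SFTPA1 had no count in any library, and SFTPB and SFTPD stayed below 1 CPM. Of the 4 basal-cell markers, TP63 was lower, with 0.479 and 0.765 CPM in deprived and 5.40 and 5.67 CPM in control libraries, and KRT5 and KRT14 had counts in control replicate 1 only. The 5 blood markers summed to 0.756 to 0.876 CPM in the deprived and 12.7 to 26.6 CPM in the control libraries; CD14 was lower (0.498 and 0.525 CPM in deprived, 13.2 and 12.4 CPM in control libraries), and HBB reached 11.6 CPM in control replicate 1 only. Fibroblast and endothelial markers summed to less than 3 CPM in every library. The part of these shifts in the results below was not tested.

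SR proteins carry RNA-binding domains and a tail rich in arginine and serine, bind exonic enhancers and promote the use of nearby splice sites. Many hnRNPs bind silencers and oppose them, although both classes can act either way depending on where they bind. CLK kinases phosphorylate the tail in the nucleus and SRPK kinases do so mainly in the cytoplasm, which controls where SR proteins reside and how active they are. Many of these genes limit their own expression: the protein promotes an exon or splice that brings in a premature stop codon, and the resulting mRNA is degraded by nonsense-mediated decay. CLK1 RNA is also known to be kept in the nucleus with introns unspliced and to be spliced to completion when CLK activity falls.

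The members were more often higher than lower after deprivation. On summed gene counts, 22 of the 42 tested members were called higher and 6 lower, and 14 were not called (edgeR quasi-likelihood test, Benjamini-Hochberg adjusted p under 0.05 over all 24527 genes tested). Over all genes tested, 25.2% were called higher and 24.4% lower, and over the 15411 protein-coding genes 34.3% and 29.8%. The median log2 fold change (deprived over control) was 0.42 over the members, against -0.06 over all genes and 0.01 over protein-coding genes. Both deprived libraries lay above both control libraries for 28 members and below them for 7, while 42.9% and 41.5% of protein-coding genes separated in those directions. The counts depend on the scaling. With library size only, 13 members were higher and 10 lower, the median over all genes was -0.40, and the share of higher calls among all calls was 32.8% in place of 50.8%. Differences are therefore relative to the level of most genes. In bulk RNA, fewer cells of a type and less RNA per cell cannot be told apart.

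**Figure D1:**
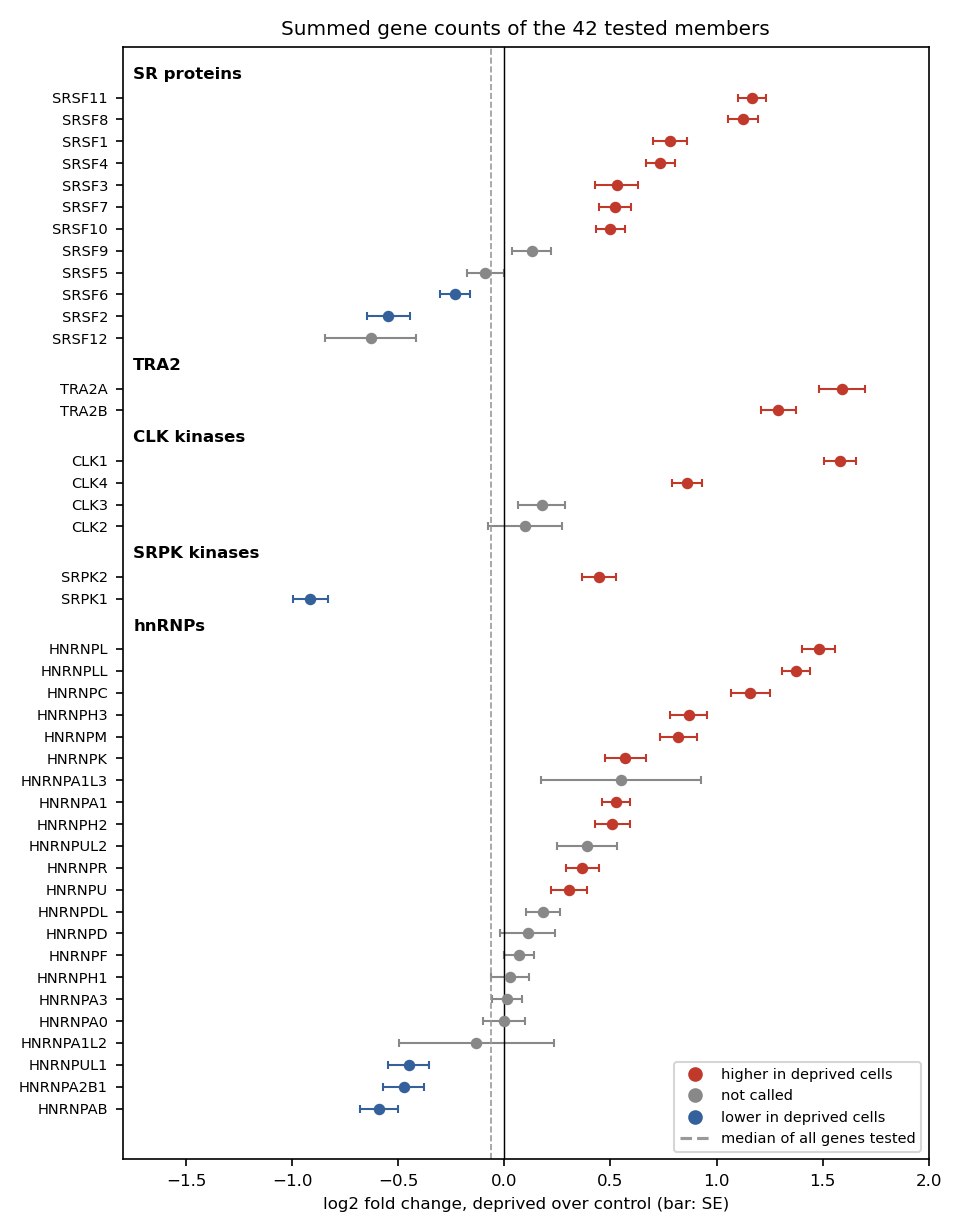
Log2 fold change (deprived over control) of the 42 tested members on summed gene counts, grouped by family, with SE bars; colours mark the calls and the dashed line is the median of all genes tested, -0.06. Red points (22) lie to the right, up to 1.59 for TRA2A, and blue points (6) to the left, down to -0.92 for SRPK1.

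Among the kinases, CLK1 and CLK4 rose, SRPK2 rose slightly and SRPK1 fell. CLK1 had 150.4 and 154.1 CPM in deprived cells, against 48.6 and 53.1 CPM in control cells, a log2 fold change of 1.58 ± 0.08 (SE; edgeR adjusted p = 3.2e-05). CLK4 had 45.0 and 45.9 CPM in deprived cells, against 24.6 and 25.6 CPM in control cells (0.86 ± 0.07, edgeR adjusted p = 2.0e-04). In both genes the groups were well apart and replicates close together. CLK3 had 37.95 and 30.9 CPM in deprived cells and 30.4 and 30.6 CPM in control cells, and was not called (0.18 ± 0.11, edgeR adjusted p = 0.239). CLK2, the kinase with the lowest level, had 5.54 and 6.83 CPM in deprived cells and 5.42 and 6.15 CPM in control cells, and the groups overlapped (0.10 ± 0.18, edgeR adjusted p = 0.686). SRPK1, a kinase that loads SR proteins for nuclear import, had 72.9 and 65.5 CPM in deprived cells, against 126.8 and 134.3 CPM in control cells (-0.92 ± 0.08, edgeR adjusted p = 2.7e-04). The SRPK1 call was lost with coding transcripts alone (-0.35). SRPK2 had 46.5 and 50.1 CPM in deprived cells, against 34.3 and 36.6 CPM in control cells (0.45 ± 0.08, edgeR adjusted p = 0.0047), and its call was lost with library size only (0.11). Per length, CLK1 was the most abundant of the kinases in deprived cells (mean 97.9 TPM) and SRPK1 in control cells (mean 64.3 TPM).

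Both TRA2 genes, SR-like activators that bind purine-rich enhancers, rose. TRA2A had 52.3 and 55.2 CPM in deprived cells, against 19.5 and 16.2 CPM in control cells (1.59 ± 0.11, edgeR adjusted p = 9.0e-05). TRA2B had 468.9 and 444.1 CPM in deprived cells, against 179.1 and 193.7 CPM in control cells (1.29 ± 0.08, edgeR adjusted p = 7.1e-05). Each was higher in both deprived libraries than in both control libraries. Per length TRA2B remained the more abundant of the pair, with mean levels of 244.8 and 117.5 TPM in deprived and control cells, against 50.7 and 22.7 TPM for TRA2A.

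Of the 12 SR protein genes, 7 rose, 2 fell and 3 were not called. SRSF11, which associates with the splice-site recognition factor U2AF, had the largest rise, with 205.6 and 209.0 CPM in deprived cells, against 91.3 and 93.5 CPM in control cells (1.17 ± 0.07, edgeR adjusted p = 5.2e-05). SRSF8, a relative of SRSF2, rose by 1.12 on the log2 scale, SRSF1, the founding SR protein, by 0.78, and SRSF4 by 0.74. SRSF3, the smallest SR protein, rose by 0.53, SRSF7 by 0.52 and SRSF10 by 0.50, and the calls of these 3 were lost with library size only (0.19, 0.18 and 0.16). SRSF2, an enhancer-binding protein found in nuclear speckles, fell: 296.1 and 249.0 CPM in deprived cells, against 395.1 and 401.8 CPM in control cells (-0.55 ± 0.10, edgeR adjusted p = 0.0054). SRSF6 had 257.4 and 245.6 CPM in deprived cells, against 293.1 and 298.2 CPM in control cells (-0.23 ± 0.07, edgeR adjusted p = 0.036). The SRSF6 groups did not overlap, but its call held in only 6 of 13 alternative settings and was lost when any single library was left out. SRSF12 (-0.63, edgeR adjusted p = 0.0536), SRSF5 (-0.09) and SRSF9 (0.13) were not called. SRSF2 overlaps exons of MFSD11 on the opposite strand and SRSF9 those of GATC; the sources used here do not say whether strand was used in counting, so reads of these pairs may be mixed.

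Among the 22 tested hnRNP genes, 10 rose, 3 fell and 9 were not called. HNRNPL, which binds CA-rich RNA, had 495.4 and 509.7 CPM in deprived cells, against 185.6 and 174.2 CPM in control cells (1.48 ± 0.08, edgeR adjusted p = 3.8e-05). Its paralog HNRNPLL, known for the exon choice of CD45 in T cells, had 194.3 and 194.9 CPM in deprived cells, against 75.3 and 74.9 CPM in control cells (1.37 ± 0.07, edgeR adjusted p = 3.1e-05). The rises of these paralogs exceeded those of all the other hnRNP genes tested. HNRNPC, which binds uridine tracts, followed with 1.16, then HNRNPH3 with 0.87, HNRNPM with 0.82, HNRNPK with 0.57, HNRNPA1 with 0.52, HNRNPH2 with 0.51, HNRNPR with 0.37 and HNRNPU with 0.30. Of these, HNRNPK, HNRNPA1, HNRNPH2, HNRNPR and HNRNPU were not called with library size only, and HNRNPU then had -0.032. The HNRNPU call held in only 6 of 13 alternative settings and was lost when either control library or deprived replicate 2 was left out; that of HNRNPR held in 10 of 13 and was lost without control replicate 2. The 3 that fell had groups that did not overlap. HNRNPAB had 57.2 and 49.4 CPM in deprived cells, against 80.4 and 80.0 CPM in control cells (-0.59 ± 0.09, edgeR adjusted p = 0.0024). HNRNPA2B1, which overlaps exons of CBX3 on the opposite strand, had 55.5 and 65.7 CPM in deprived cells, against 86.4 and 82.1 CPM in control cells (-0.48 ± 0.10, edgeR adjusted p = 0.0087), a call lost with coding transcripts alone (-0.85). HNRNPUL1 had 279.4 and 237.0 CPM in deprived cells, against 356.5 and 349.6 CPM in control cells (-0.45 ± 0.10, edgeR adjusted p = 0.010). The 9 not called were HNRNPA0, HNRNPA1L2, HNRNPA1L3, HNRNPA3, HNRNPD, HNRNPDL, HNRNPF, HNRNPH1 and HNRNPUL2, with log2 fold changes of -0.13 to 0.55. HNRNPA1 has 74 annotated pseudogenes, which together held counts equal to 6.87% of its own, so its value and those of HNRNPA1L2 and HNRNPA1L3 may share reads with copies.

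**Figure D2:**
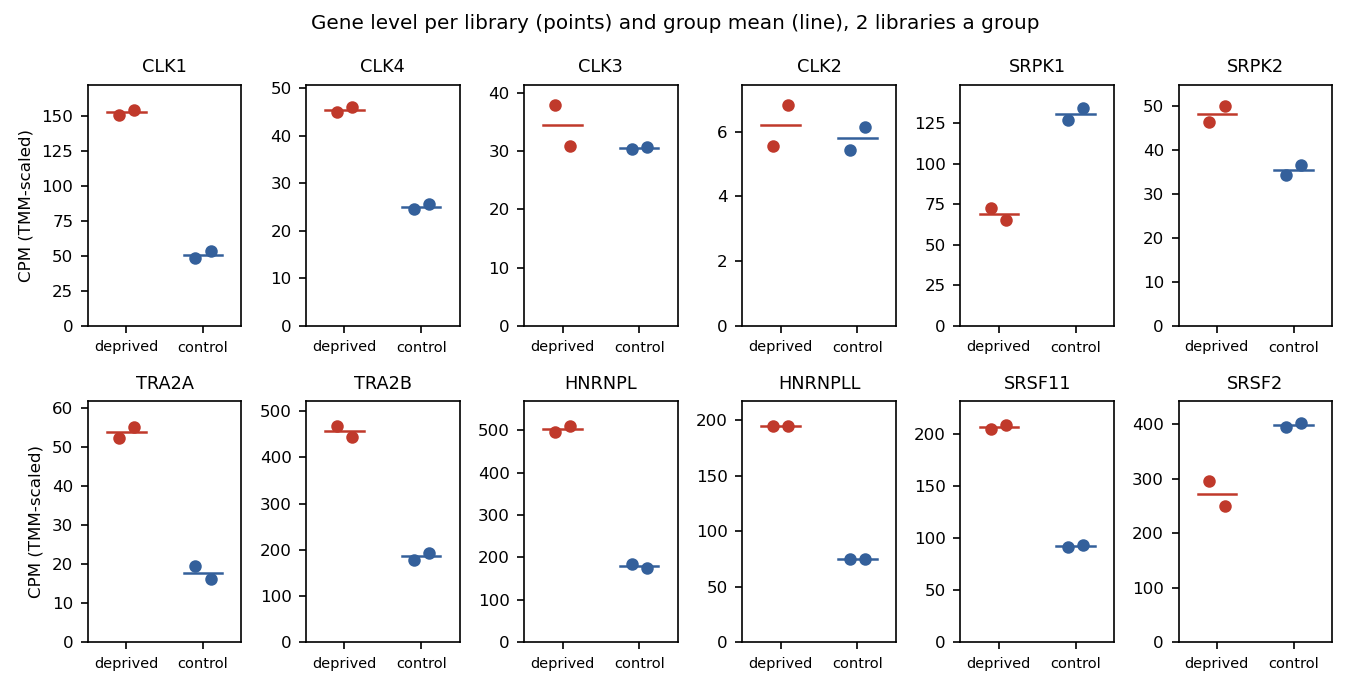
CPM per library (points) and group mean (lines) for the CLK, SRPK and TRA2 genes and for HNRNPL, HNRNPLL, SRSF11 and SRSF2, deprived left and control right, each axis from 0. CLK1 stood at 150.4 and 154.1 CPM in deprived and 48.6 and 53.1 CPM in control libraries; SRPK1 and SRSF2 were lower in deprived libraries, and the CLK2 groups overlapped.

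Each gene was next divided by the annotated type of its transcripts. Coding means transcripts of protein-coding type, decay-type those annotated as targets of nonsense-mediated or non-stop decay, and retained-intron those annotated to keep an intron. Transcript names are those of GENCODE. The members have 526 transcripts in the table, 256 coding, 70 decay-type, 131 retained-intron and 69 of other types. The division of reads among transcripts is an estimate, and it differed between replicates for some genes. The coding transcript CLK1-205 had 45.0 and 3.44 CPM in the 2 deprived libraries. Most of what follows is given as class sums, and some of these also differed between replicates. Counts also grow with transcript length, so a share of counts is not a share of molecules.

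Summed coding counts rose for 18 members and fell for 4 of the 41 tested, while 27.3% of protein-coding genes rose and 21.6% fell in this class; 2 fell without control replicate 2. The 4 that fell were SRSF2, SRSF6, HNRNPAB (-0.58) and HNRNPUL1 (-0.46); the HNRNPAB call was lost when either control library or deprived replicate 2 was left out. Decay-type counts rose for 8 and fell for 1 of the 29 tested, against 12.0% higher and 7.42% lower over protein-coding genes; 4 rose without control replicate 1, and the 1 lower call was lost without control replicate 1 or deprived replicate 1. Retained-intron counts rose for 4 and fell for 2 of the 28 tested, against 8.85% and 10.7%; 1 rose when either control library was left out and 2 without deprived replicate 2, and 1 fell with any single library left out. The median log2 fold change of the members was 0.42 for the coding class, 0.74 for the decay-type class and 0.04 for the retained-intron class, and 0.02, 0.16 and -0.10 over protein-coding genes.

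The 8 members with a higher decay-type sum were SRSF3, HNRNPDL, HNRNPM, SRSF6, SRSF10, SRSF8, SRSF2 and SRSF7. In SRSF3, SRSF6 and SRSF7, decay-type transcripts include an exon that the main coding transcript skips and that holds an in-frame stop codon, known as a poison exon. The part of this exon that is read before the ribosome stops is shown for the 3 genes because the stop codon of the named decay-type transcript lies in it. SRSF7-204 also carries a further added exon of 36 bases, and the most abundant decay-type transcript of SRSF7, SRSF7-208, has its stop elsewhere, in an intron that it keeps. Letters were read from the GENCODE release 29 transcripts (GRCh38), 5′ to 3′, with the stop codon in capitals.
SRSF3-203 exon 4, chr6:36599821-36599854, plus strand: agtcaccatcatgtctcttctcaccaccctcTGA
SRSF6-202 exon 3, chr20:43459153-43459304, plus strand: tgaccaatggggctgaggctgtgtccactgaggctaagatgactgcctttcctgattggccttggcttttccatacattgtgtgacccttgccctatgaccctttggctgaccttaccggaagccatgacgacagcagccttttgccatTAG
SRSF7-204 exon 4, chr2:38749319-38749346, minus strand: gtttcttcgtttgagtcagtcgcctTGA
In each case the stop lies far upstream of the last exon junction, by 548 bases in SRSF3-203, 534 in SRSF6-202 and 697 in SRSF7-204. The whole exons are 456, 268 and 449 bases long and lie at chr6:36599821-36600276, chr20:43459153-43459420 and chr2:38748898-38749346.

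SRSF3 had the steepest rise of decay-type RNA. Its decay-type sum was 20.01 and 15.8 CPM in deprived cells, against 1.44 and 0.790 CPM in control cells (4.01 ± 0.38, edgeR adjusted p = 0.0046). Its coding sum was 452.8 and 382.4 CPM in deprived cells, against 273.5 and 321.0 CPM in control cells, and was not called (0.49 ± 0.13, edgeR adjusted p = 0.054). Decay-type transcripts made up 4.23% and 3.96% of decay-type plus coding counts in deprived cells, and 0.522% and 0.245% in control cells. The poison-exon transcript SRSF3-203 itself had 19.6 and 15.4 CPM in deprived cells and 1.06 and 0.381 CPM in control cells. The groups were apart, with an edgeR adjusted p of 0.067 over all transcripts. SRSF3-201 and the retained-intron transcript SRSF3-207 also cover this exon. SRSF3-207 had 36.8 and 40.4 CPM in deprived cells and 32.9 and 31.7 CPM in control cells. The SRSF3-203 values therefore depend on how reads were divided among these transcripts.

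In SRSF6 and SRSF2 the coding and decay-type sums went in opposite directions. SRSF6 coding counts fell, with 192.6 and 188.7 CPM in deprived cells, against 276.0 and 284.1 CPM in control cells (-0.56 ± 0.06, edgeR adjusted p = 0.0065). Its poison-exon transcript SRSF6-202, which holds all of its decay-type counts, rose, with 64.8 and 56.9 CPM in deprived cells, against 17.0 and 14.0 CPM in control cells (1.97 ± 0.15 as a class, edgeR adjusted p = 0.0026). It was the only decay-type transcript of a member called on its own (edgeR adjusted p = 0.047). The decay-type share of SRSF6 was 25.2% and 23.2% in deprived cells and 5.81% and 4.71% in control cells. SRSF2 coding counts fell too, with 201.5 and 174.4 CPM in deprived cells, against 345.1 and 346.2 CPM in control cells (-0.88 ± 0.09, edgeR adjusted p = 0.0057). SRSF2 decay-type counts rose, with 76.7 and 58.0 CPM in deprived cells, against 32.6 and 32.7 CPM in control cells (1.04 ± 0.16, edgeR adjusted p = 0.014), although this call was lost when either control library was left out (1.03 in both cases). The decay-type share of SRSF2 was 27.6% and 25.0% in deprived cells and 8.63% and 8.63% in control cells. The stop exon of the decay-type transcripts SRSF2-204 and SRSF2-208 is also in the main coding transcript SRSF2-205, which is spliced downstream of it too. They have 5 and 4 exons in all, against 3 in SRSF2-205. The most abundant decay-type transcript, SRSF2-208, had 55.7 and 39.1 CPM in deprived cells and 6.77 and 17.1 CPM in control cells.

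HNRNPDL, a relative of HNRNPD, was not called as a gene (162.1 and 145.8 CPM in deprived cells, 132.7 and 138.8 CPM in control cells, edgeR adjusted p = 0.112), but its decay-type sum rose. This was 23.3 and 20.6 CPM in deprived cells, against 1.75 and 3.01 CPM in control cells (3.20 ± 0.33, edgeR adjusted p = 0.0053). Its coding sum was 138.9 and 125.1 CPM in deprived cells and 131.0 and 135.8 CPM in control cells, with overlapping groups. The decay-type share of HNRNPDL was 14.4% and 14.2% in deprived cells and 1.32% and 2.17% in control cells. The transcripts HNRNPDL-202 and HNRNPDL-203 carry an extra exon of 105 bases downstream of the stop codon (chr4:82425563-82425667, minus strand), and the estimate moved between them: HNRNPDL-202 had 17.7 and 4.25 CPM and HNRNPDL-203 had 5.50 and 15.9 CPM in the 2 deprived libraries.

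SRSF10, SRSF7, HNRNPM and SRSF8 also had higher decay-type sums. The coding sums of SRSF10, HNRNPM and SRSF8 rose as well (that of HNRNPM was not called without control replicate 2 or either deprived library), and that of SRSF7 was not called (0.35, edgeR adjusted p = 0.157). SRSF10, a splicing repressor when dephosphorylated, had a decay-type sum of 14.1 and 12.7 CPM in deprived cells, against 4.46 and 3.91 CPM in control cells (1.68 ± 0.18, edgeR adjusted p = 0.0056), while its coding sum rose by 0.70 on the log2 scale. SRSF7 had a decay-type sum of 120.3 and 116.3 CPM in deprived cells, against 76.3 and 80.02 CPM in control cells (0.60 ± 0.07, edgeR adjusted p = 0.0073), a call lost without control replicate 1. In SRSF7 most counts were decay-type in every library: 75.4% and 78.0% in deprived cells and 74.5% and 72.3% in control cells. Within that class the poison-exon transcript SRSF7-204 had 45.5 and 39.7 CPM in deprived cells and 13.5 and 9.88 CPM in control cells (edgeR adjusted p = 0.060). SRSF7-208, which keeps the whole intron around the poison exon, had 69.1 and 67.9 CPM in deprived cells and 59.4 and 66.6 CPM in control cells (edgeR adjusted p = 0.62). HNRNPM had decay-type sums of 4.43 and 5.12 CPM in deprived cells and 0.770 and 1.48 CPM in control cells (2.09 ± 0.40, edgeR adjusted p = 0.025), a call lost when control replicate 1 or either deprived library was left out. SRSF8 had 4.08 and 2.35 CPM in deprived cells and 1.22 and 1.06 CPM in control cells (edgeR adjusted p = 0.045), and lost its call in 7 settings. The decay-type sum of SRPK2 fell (-4.03, edgeR adjusted p = 0.031) but was below 1 CPM in every library, and the call was lost in 5 settings.

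**Figure D3:**
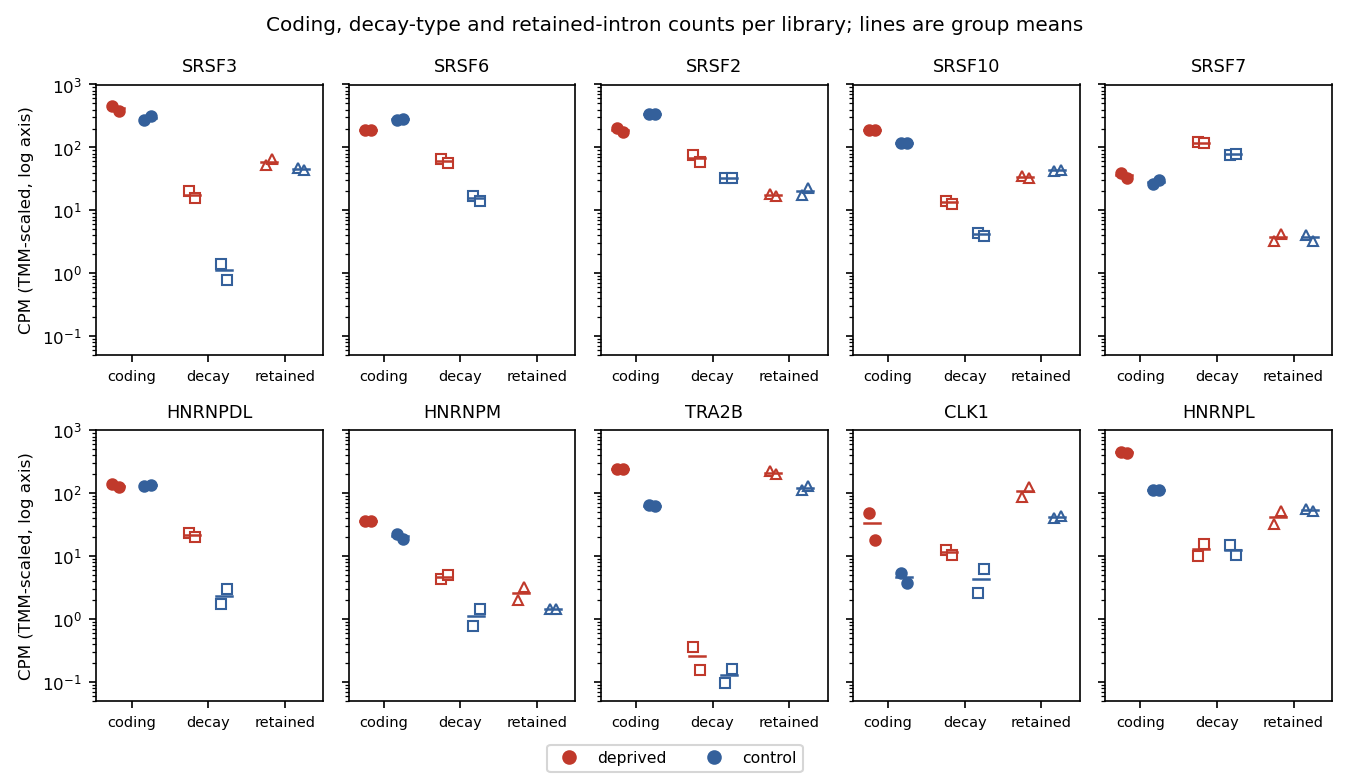
CPM per library (points, log axis, the same scale in all panels) of summed coding (filled circles), decay-type (squares) and retained-intron (triangles) transcripts, deprived in red to the left of control in blue; lines are group means. SRSF6 and HNRNPDL have no retained-intron transcript. SRSF6 and SRSF2 show lower coding and higher decay-type levels in deprived libraries, and HNRNPL shows higher coding levels with overlapping decay-type levels.

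The change of the decay-type to coding ratio within a gene was then tested directly. No gene passed over the 3409 tested (edgeR class by condition term, 0% higher and 0% lower), so none of the 28 members did, and limma on log2 ratios made no call either. The lowest edgeR adjusted p of a member was 0.203. At an unadjusted p under 0.05, 471 genes were found in all; 5 members were higher and 3 lower, against 8.36% and 5.46% of the genes tested. Both deprived shares lay above both control shares for 12 members and below them for 6, against 27.9% and 23.4% of the genes tested. The 5 higher were HNRNPDL (log2 ratio change 3.27 ± 0.48, edgeR unadjusted p = 0.0029), SRSF3 (3.57 ± 0.54), SRSF6 (2.53 ± 0.39), SRSF2 (1.91 ± 0.36) and SRSF5 (1.92 ± 0.62). SRSF5 had a decay-type share of 65.7% and 64.2% in deprived cells and 28.1% and 37.97% in control cells, with low levels (coding sums of 3.34 and 5.99 CPM in deprived cells and 7.58 and 7.37 CPM in control cells). The stop exon of decay-type SRSF5-211 (mean 6.15 CPM over all libraries) lies within retained-intron SRSF5-207 and SRSF5-212 (means 18.2 and 8.32 CPM). The SRSF5 share therefore depends on how reads were divided among these transcripts. The 3 lower were SRPK2 (-4.68 ± 0.96), HNRNPL (-2.00 ± 0.48) and SRSF4 (-2.09 ± 0.68). The SRPK2 share was 0.0215% and 0.117% in deprived cells and 1.29% and 2.02% in control cells. HNRNPL had a share of 2.16% and 3.44% in deprived cells and 11.7% and 8.64% in control cells: its decay-type sum was 9.97 and 15.8 CPM in deprived cells and 15.1 and 10.5 CPM in control cells, while its coding sum rose. Retained-intron HNRNPL-206 (mean 24.6 CPM over all libraries) covers the stop exon of decay-type HNRNPL-202, so the HNRNPL share also depends on that division. The SRSF4 share was 2.25% and 1.68% in deprived cells and 6.62% and 9.19% in control cells. It rests on few decay-type counts, 34 and 23 in deprived and 34 and 43 in control libraries. SRSF4 coding counts were 1478 and 1343 in deprived and 480 and 425 in control libraries. The stop exon of decay-type SRSF4-206 (mean 0.295 CPM over all libraries) is also in SRSF4-208. That transcript is annotated as retained-intron and had a mean of 36.4 CPM. SRSF4-208 was higher in both deprived than in both control libraries but was not called on its own. The decay-type class does not hold all SRSF4 RNA with this exon, so the share cannot show how that RNA changed.

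In CLK1 and CLK4 the decay-type share varied widely between replicates. CLK1 decay-type transcripts, chiefly CLK1-204, which skips exon 4 and runs into a stop codon in the exon after it, made up 20.9% and 37.0% of decay-type plus coding counts in deprived cells and 31.9% and 62.3% in control cells (edgeR unadjusted p = 0.29). In CLK4 they made up 11.6% and 26.2% in deprived cells and 49.6% and 30.2% in control cells (edgeR unadjusted p = 0.14). TRA2B decay-type counts stayed below 0.4 CPM. The exon of 276 bases added in its decay-type transcript TRA2B-206 (mean 0.195 CPM over all libraries) is also added in TRA2B-214. That transcript is annotated as retained-intron and had a mean of 36.4 CPM, so the decay-type class does not hold all TRA2B RNA with this exon. TRA2A was not tested for lack of decay-type counts. For HNRNPU, the decay-type sum was 0.249 and 0.359 CPM in deprived cells and 10.4 and 0.145 CPM in control cells, so it rested on control replicate 1.

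**Figure D4:**
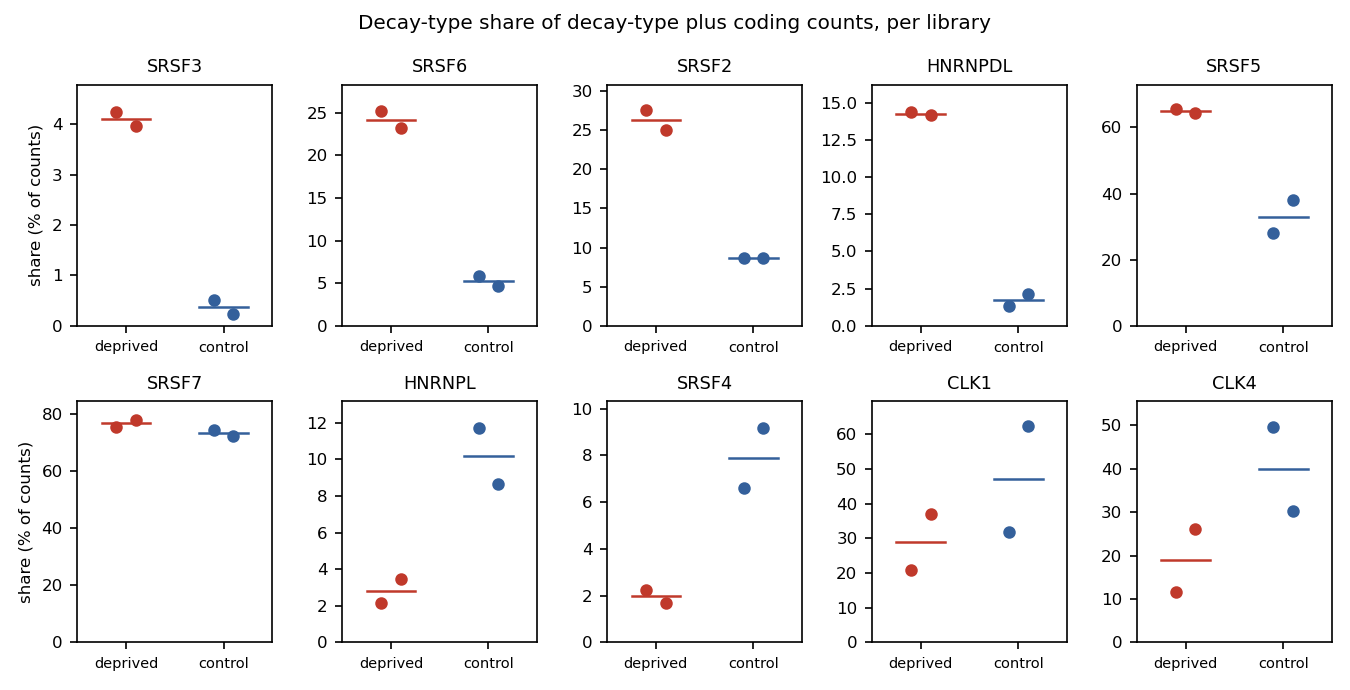
Decay-type share of decay-type plus coding counts (%, each axis from 0) per library for 10 members, deprived left and control right; lines are group means. SRSF3, SRSF6, SRSF2, HNRNPDL and SRSF5 lie higher in both deprived libraries, HNRNPL and SRSF4 lower, and the CLK1 groups overlap.

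The retained-intron to coding ratio was tested in the same way. No gene passed the edgeR test over the 5772 tested (0% higher and 0% lower), and the lowest adjusted p of the 27 members tested was 0.103. At an unadjusted p under 0.05, 1272 genes were found; no member was higher and 6 were lower, against 7.67% and 14.4% of the genes tested. limma on log2 count ratios called 1 gene and limma on ratios of counts per kilobase called 8 genes higher and 13 lower, none of them a member. Both deprived shares lay below both control shares for 14 members and above them for 2, against 34.3% and 21.7% of the genes tested.

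The 6 members were HNRNPL, SRSF10, TRA2B, SRSF4, HNRNPAB and SRPK1. HNRNPL retained-intron transcripts made up 6.80% and 10.4% of retained-intron plus coding counts in deprived cells, against 33.5% and 32.1% in control cells (log2 ratio change -2.40 ± 0.32, edgeR unadjusted p = 9.2e-04). The retained-intron sum of HNRNPL was 33.0 and 51.5 CPM in deprived cells and 57.1 and 52.5 CPM in control cells and was not called, whereas the coding sum was 452.4 and 442.3 CPM in deprived cells, against 113.5 and 111.2 CPM in control cells (1.99 ± 0.06, edgeR adjusted p = 9.7e-04). Of the 2 sums, the coding one differed more between the groups. TRA2B showed a share of 48.5% and 45.4% in deprived cells and 63.1% and 67.8% in control cells; both of its classes rose, coding by 1.92 (edgeR adjusted p = 0.0010) and retained-intron by 0.81 on the log2 scale (edgeR adjusted p = 0.011). TRA2B-215 was its most abundant retained-intron transcript (165.4 and 134.7 CPM in deprived cells, 66.4 and 82.6 CPM in control cells). The same class includes TRA2B-214 (mean 36.4 CPM over all libraries), which carries the added exon of 276 bases found in decay-type TRA2B-206. SRSF10 had shares of 15.9% and 14.8% in deprived cells and 26.8% and 27.4% in control cells, and its retained-intron sum, at 35.4 and 33.1 CPM in deprived cells and 42.6 and 43.97 CPM in control cells, was not called (-0.34, edgeR adjusted p = 0.055). SRSF4 had 74.8% and 78.3% in deprived cells and 87.8% and 88.4% in control cells, and again both classes rose, coding by 1.72 and retained-intron by 0.54 (edgeR adjusted p = 0.017, a call lost when either control library or deprived replicate 2 was left out). The retained-intron sum of SRPK1 fell, to 16.2 and 10.5 CPM in deprived cells, against 80.6 and 43.8 CPM in control cells (-2.22 ± 0.39, edgeR adjusted p = 0.020). SRPK1 coding counts were 56.3 and 54.7 CPM in deprived cells and 45.6 and 90.0 CPM in control cells and overlapped, and with coding transcripts alone the gene-level call was lost (-0.35). The main retained-intron transcript, SRPK1-201, keeps the first intron, of 515 bases. The SRPK1 share was 22.3% and 16.1% in deprived cells and 63.9% and 32.7% in control cells. HNRNPAB had shares of 0.469% and 0.504% in deprived cells and 0.860% and 1.14% in control cells. HNRNPAB and HNRNPLL were also called on their retained-intron sums, lower and higher, but these were below 1 CPM in every library and the calls were lost in 6 and 7 settings.

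CLK1 is a gene in which most counts came from retained-intron transcripts. They had 88.9 and 125.3 CPM in deprived cells, against 40.5 and 43.1 CPM in control cells (1.36 ± 0.19, edgeR adjusted p = 0.011). Coding counts of CLK1 had 48.6 and 18.1 CPM in deprived cells, against 5.51 and 3.77 CPM in control cells (2.85 ± 0.56, edgeR adjusted p = 0.027). Both calls were lost when either control library was left out, with 1.30 and 1.39 for the retained-intron sum and 3.13 and 2.58 for the coding sum. The retained-intron share was 64.6% and 87.4% in deprived cells and 88.0% and 92.0% in control cells; the groups did not overlap, but the deprived libraries differed widely (edgeR unadjusted p = 0.13). The leading transcript, CLK1-210, keeps introns 3 and 4, on either side of exon 4 (chr2:200860216-200861237 and chr2:200859747-200860124, minus strand). CLK1-207, which keeps introns 4 and 7, was called on its own, with 25.1 and 25.7 CPM in deprived cells, against 3.90 and 4.85 CPM in control cells (2.54 ± 0.24, edgeR adjusted p = 0.046). CLK4 retained-intron shares were 37.2% and 56.9% in deprived cells and 77.7% and 55.8% in control cells, and overlapped. For SRSF2, SRSF3, SRSF5, SRSF7 and TRA2A the unadjusted p of the retained-intron ratio was 0.051, 0.79, 0.27, 0.44 and 0.10 by edgeR. SRSF2, among the 8 members of smallest p, had shares of 8.18% and 8.73% in deprived cells and 4.78% and 6.23% in control cells. SRSF1, the last of these 8, had 0.117% and 0.0805% in deprived cells and 0.160% and 0.162% in control cells (edgeR unadjusted p = 0.055). The SRSF1 shares rest on 82 and 57 retained-intron counts in deprived and 67 and 70 in control libraries. TRA2A had 6.29% and 7.39% in deprived cells and 13.97% and 9.04% in control cells. In SRSF5 these transcripts made up 89.5% and 81.0% in deprived cells and 81.2% and 79.2% in control cells.

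**Figure D5:**
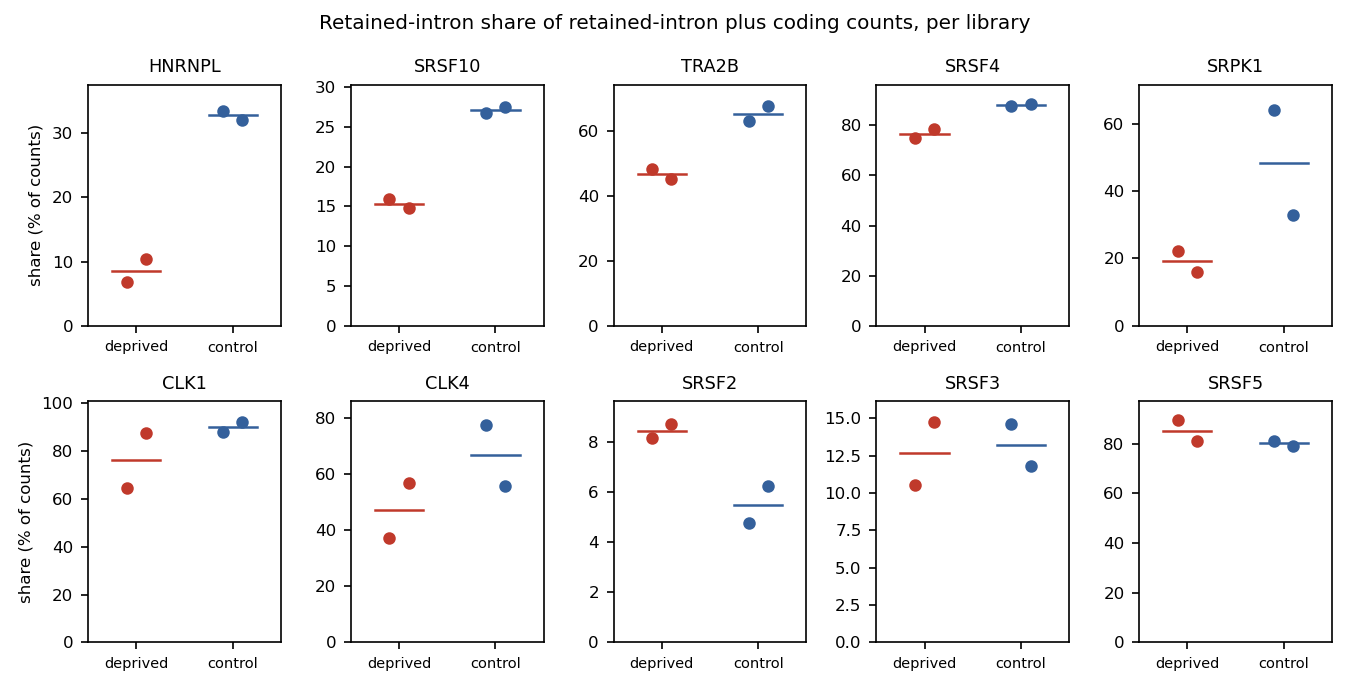
Retained-intron share of retained-intron plus coding counts (%, each axis from 0) per library for 10 members, deprived left and control right; lines are group means. HNRNPL, SRSF10, TRA2B, SRSF4 and SRPK1 lie lower in both deprived libraries, SRSF2 lies higher, and SRSF3, SRSF5 and CLK4 overlap.

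Of the 351 member transcripts tested one by one, 10 were called higher and 1 lower, against 1.41% and 0.658% of the 83759 transcripts tested. Besides SRSF6-202 and CLK1-207, the higher ones were coding. HNRNPL-215 had 374.7 and 389.4 CPM in deprived cells and 81.1 and 83.4 CPM in control cells. SRSF11-202 had 140.6 and 137.2 CPM in deprived cells and 29.01 and 24.8 CPM in control cells, while the non-coding SRSF11-214 had 42.9 and 42.1 CPM in deprived cells and 43.8 and 44.8 CPM in control cells. TRA2B-205 had 216.6 and 227.6 CPM in deprived cells and 61.7 and 58.3 CPM in control cells. For SRSF10, the coding transcript SRSF10-203 rose (95.8 and 87.8 CPM in deprived cells, 23.5 and 22.2 CPM in control cells), whereas SRSF10-214 had 85.7 and 98.2 CPM in deprived cells and 89.9 and 86.3 CPM in control cells and overlapped. TRA2A-201, SRSF1-201, HNRNPLL-209 and HNRNPLL-212 were the remaining higher ones, and SRSF2-203 was lower (44.3 and 46.4 CPM in deprived cells, 103.1 and 108.0 CPM in control cells).

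Genes that work with the members were mostly higher as well. All those listed are protein-coding, and of all 15411 protein-coding genes tested 34.3% were called higher and 29.8% lower. Of 47 core spliceosome genes, 38 were called higher and 1, PRPF31, lower, with a median log2 fold change of 0.73; the smallest p-values were those of CWC22 (1.99), PRPF3 (1.97), SF3A1 (1.67) and BUD31 (1.69). Of 50 other splicing regulators, 29 were higher and 10 lower, with a median of 0.36, led by SCAF1 (1.56), QKI (1.32), SRRM2 (1.24) and SON (1.41), the last of these a core component of nuclear speckles. Of 19 genes listed for modifying SR proteins or for nuclear import, 13 were higher and 2 lower (median 0.52). The higher ones include TOP1 (1.74), DYRK1A (0.84), the kinase PRPF4B (0.72) and TNPO1 (0.93), a nuclear import receptor not specific to SR proteins. Of 10 nonsense-mediated decay factors, 8 were higher and the other 2, SMG8 and UPF3A, were not called (median 0.64); the higher ones include SMG9 (1.47), the kinase SMG1 (1.22), SMG5 (1.11) and UPF3B (1.5). With library size only, 17 of the other regulators and 8 of the modifiers and importers were higher. Of all 24527 genes tested, 4179 were then higher and 8565 lower. With 1 library left out, 3 to 6 of the other regulators and 1 of the modifiers and importers were lower. The lists were written with earlier results of these data known, and nothing is read from them beyond their counts.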

How the data were processed

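RNA was measured in 2 glutamine-deprived and 2 control A549 libraries. Per the labels' protocols, mRNA was taken on poly-T beads and copied with random hexamers. Per the submitters' processing notes, DESeq2 1.20.0, featureCounts 1.5.0-p3 and HISAT2 2.0.5 were used on hg38, in unnamed roles. Which program split reads over transcripts, with which annotation and use of strand, is not given in the sources used here. Whole numbers per transcript, deposited by the authors, act as estimated counts and were used unchanged. The 229420 transcripts were summed to genes and classes with GENCODE release 29, which matched 205306 of them and 98.0% to 98.2% of each library's counts; sums of some genes are therefore partial.

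Genes, classes and transcripts were filtered (filterByExpr), scaled by TMM and tested with edgeR 4.0.16 (two-sided, Benjamini-Hochberg) in R 4.3.3. SEs are the absolute log2 fold change over the square root of F. Ratios needed a mean of 20 counts in each class and were fitted with library terms. TPM were computed from the counts and annotated lengths. Alternatives used limma 3.58.1 (0.5 added to each count for ratios) and DESeq2 1.42.0. Replicate libraries differed by more than sampling noise (chi-square per degree of freedom 46.2 for the deprived and 34.4 for the control pair). The fits were run on simulated data whose spread was smaller than that of the ratios here. The square root of the edgeR common dispersion was 0.634 for the decay-type ratio and 0.361 for the retained-intron ratio. The simulation therefore cannot show what change the ratio tests would detect in these data. Members, gene lists and tests were chosen with earlier results of these data known. Named genes were all tested members at gene level, with library values for the 6 largest rises and falls and for all kinases; the 8 members of smallest p in each ratio and CLK1, CLK4, SRSF2, SRSF3, SRSF5, SRSF6, SRSF7, TRA2A, TRA2B and HNRNPDL; their leading transcripts; and the 4 smallest p of each list. A deposited table of lncRNA transcripts holds no member and was not used.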

Additional observations from a re-analysis of the deposited data

How the results depend on the processing

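The gene-level counts of members stayed between 20 and 23 higher and between 5 and 7 lower under RLE and upper-quartile factors, the other filters, limma-voom, DESeq2, coding transcripts only (4 lower) and each library left out (20 to 23 higher, 5 lower). The exception was library size only, with 13 higher and 10 lower. Among members called with TMM or with library size only, HNRNPU (-0.032), HNRNPF (-0.27) and HNRNPA3 (-0.32) changed sign there. Sign changes of members called with neither scaling are not listed. Same-numbered deviations had a correlation of -0.0235 over 24527 genes. With 2 libraries a group, this value cannot show whether the replicate numbers pair the samples. With a replicate block 21 members were higher and 5 lower, and the block left 2 higher and 1 lower retained-intron sums. Coding sums gave 12 to 15 higher and 2 to 4 lower with 1 library left out. Decay-type sums gave 4 to 9 higher (4 without control replicate 1) and 0 to 1 lower with 1 library left out, 2 lower with library size only, and 0 lower with no filter, with at least 50 counts in 2 libraries and with limma-voom. Retained-intron sums gave 1 to 3 higher and 1 lower with 1 library left out, 2 higher and 4 lower with library size only, and 1 lower with no filter. Transcripts with library size only gave 4 higher and 2 lower. Neither ratio test called a member under any setting. The cause of these shifts was not tested. With 2 libraries a group, calls on class sums below 1 CPM rest on few counts, and replicate libraries may be technical repeats.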
